A study of Homo sapiens with 4 samples.

Results

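The BCL2 family survival genes are the 5 genes BCL2, BCL2L1, BCL2L2, MCL1 and BCL2A1, out of 19970 protein-coding genes considered. Their STAT5A peaks were collected as every peak credited to one of these genes in either peak list, whatever its annotation, together with any peak lying in the gene or within 1 kb of its ends that was credited to another gene. This gave 9 of the 31227 peaks of the knockdown list and 7 of the 55269 peaks of the wild-type list. The lists come from chromatin immunoprecipitation and sequencing (ChIP-seq) with an antibody to STAT5A in ARP1, an established human multiple myeloma line. One list is from wild-type ARP1 cells and the other from ARP1 cells with a knockdown of YTHDF2, a reader of N6-methyladenosine on RNA, each made from 1 immunoprecipitated and 1 input library. How YTHDF2 was knocked down is not given in the labels. Neither group is described as treated with a cytokine or a drug.

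The products of the 5 genes are the proteins that keep a cell alive at its mitochondria. BCL2, BCL-XL (from BCL2L1), BCL-W (from BCL2L2), MCL1 and BFL-1 (from BCL2A1) hold the pore-forming proteins BAX and BAK and the BH3-only death proteins in check, so that cytochrome c stays inside the mitochondrion. Plasma cells and myeloma cells are known to lean on MCL1 in particular, and some myelomas on BCL2. BCL2L1 is a textbook target of STAT5 in blood cells that receive a cytokine signal.

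The sequences below show the chromatin at issue. They are the RefSeq promoter windows (GRCh38.p14, 250 bases before to 50 after a transcript start) of BCL2L1, which has 2 such windows, of BCL2 and of BCL2A1. BCL2L1 and BCL2 carried STAT5A peaks and BCL2A1 none, so that these windows set occupied starts beside an unoccupied one. No window was matched for MCL1 or BCL2L2. All are written 5′ to 3′ in the direction of the gene, which is on the minus strand in each case.

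The first BCL2L1 window, chr20:31723914-31724213, holds the start of the RefSeq gene, and capitals mark the 66 bases that lay under a peak in both lists.
BCL2L1, gene start: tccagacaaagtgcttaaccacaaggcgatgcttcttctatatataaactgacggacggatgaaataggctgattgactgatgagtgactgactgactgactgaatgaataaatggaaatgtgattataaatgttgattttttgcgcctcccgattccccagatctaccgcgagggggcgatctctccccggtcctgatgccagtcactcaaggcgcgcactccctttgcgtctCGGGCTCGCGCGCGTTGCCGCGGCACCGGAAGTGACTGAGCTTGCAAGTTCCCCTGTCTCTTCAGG
The second, chr20:31722819-31723118, belongs to a start 1095 bases further downstream, and capitals mark its match to GGGCGG on the opposite strand.
BCL2L1, downstream start: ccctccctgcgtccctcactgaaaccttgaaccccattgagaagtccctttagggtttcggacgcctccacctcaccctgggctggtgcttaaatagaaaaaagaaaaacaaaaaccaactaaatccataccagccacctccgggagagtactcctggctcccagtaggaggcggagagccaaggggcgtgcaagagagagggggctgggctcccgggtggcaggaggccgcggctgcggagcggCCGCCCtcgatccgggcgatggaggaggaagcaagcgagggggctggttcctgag
The BCL2 window, chr18:63319720-63320019, belongs to a start 321 bases downstream of the gene start, and capitals mark the 22 bases from the summit of the wild-type peak to that of the knockdown peak.
BCL2: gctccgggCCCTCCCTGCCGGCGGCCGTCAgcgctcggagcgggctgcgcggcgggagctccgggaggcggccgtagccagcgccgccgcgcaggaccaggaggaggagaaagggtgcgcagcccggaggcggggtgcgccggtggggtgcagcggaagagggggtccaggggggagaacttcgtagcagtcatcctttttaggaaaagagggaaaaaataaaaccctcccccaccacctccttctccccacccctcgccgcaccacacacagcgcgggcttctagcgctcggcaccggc
The BCL2A1 window, chr15:79971147-79971446, was free of peaks, and capitals mark its match to TTCNNNGAA, the STAT core motif.
BCL2A1: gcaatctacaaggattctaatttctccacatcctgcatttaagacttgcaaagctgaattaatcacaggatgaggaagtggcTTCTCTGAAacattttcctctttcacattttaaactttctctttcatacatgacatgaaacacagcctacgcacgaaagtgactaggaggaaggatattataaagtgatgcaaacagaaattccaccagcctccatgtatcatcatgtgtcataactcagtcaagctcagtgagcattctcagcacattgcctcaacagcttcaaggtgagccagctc

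Each list gives a fold enrichment and a q-value per peak, both the authors' own. Each condition has 1 list, so there are no replicates, no difference between conditions has an error or a test, and folds of both lists are set side by side only as values within their list. The read depth behind the peaks is unknown. The median fold of all peaks was 4.347 in knockdown and 6.0002 in wild type. Among markers of plasma cells and myeloma, 7 of 10 had promoter peaks in the 2 lists alike, SDC1, CD38, IRF4, PRDM1 and XBP1 included, and SLAMF7, TNFRSF17 and JCHAIN had none. Of 9 markers of B cells, T cells and myeloid cells, 1 had one in knockdown and 3 in wild type. Of all protein-coding genes, 56.1% had a promoter peak in knockdown and 64.7% in wild type, so 7 of 10 was near that share. The credited promoter peaks of PRDM1 were not within 1 kb of its RefSeq gene start in either list. A peak measures occupancy and not RNA, so these counts describe the chromatin of the line only.

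STAT5A lay at the start of 4 of the 5 survival genes in both conditions. BCL2L1 carried a very strong peak, BCL2 and MCL1 peaks of moderate strength and BCL2L2 a weak one, whereas BCL2A1 had no peak in or near it. By the authors' credit, BCL2L1, BCL2 and MCL1 had a promoter peak, meaning a peak within 1 kb of a transcript start, in both lists. That is 3 of 5 genes, against 56.1% of all protein-coding genes in knockdown and 64.7% in wild type, a share near the background. Counting any peak within 1 kb of the start of the RefSeq gene, whichever gene it was credited to, BCL2L2 joined them. The count was then 4 of 5 in each list, against 62.4% in knockdown and 72.7% in wild type of the 18800 genes whose strand was known. The remaining 1170 genes had no peak credited to them in either list.

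**Figure D1:**
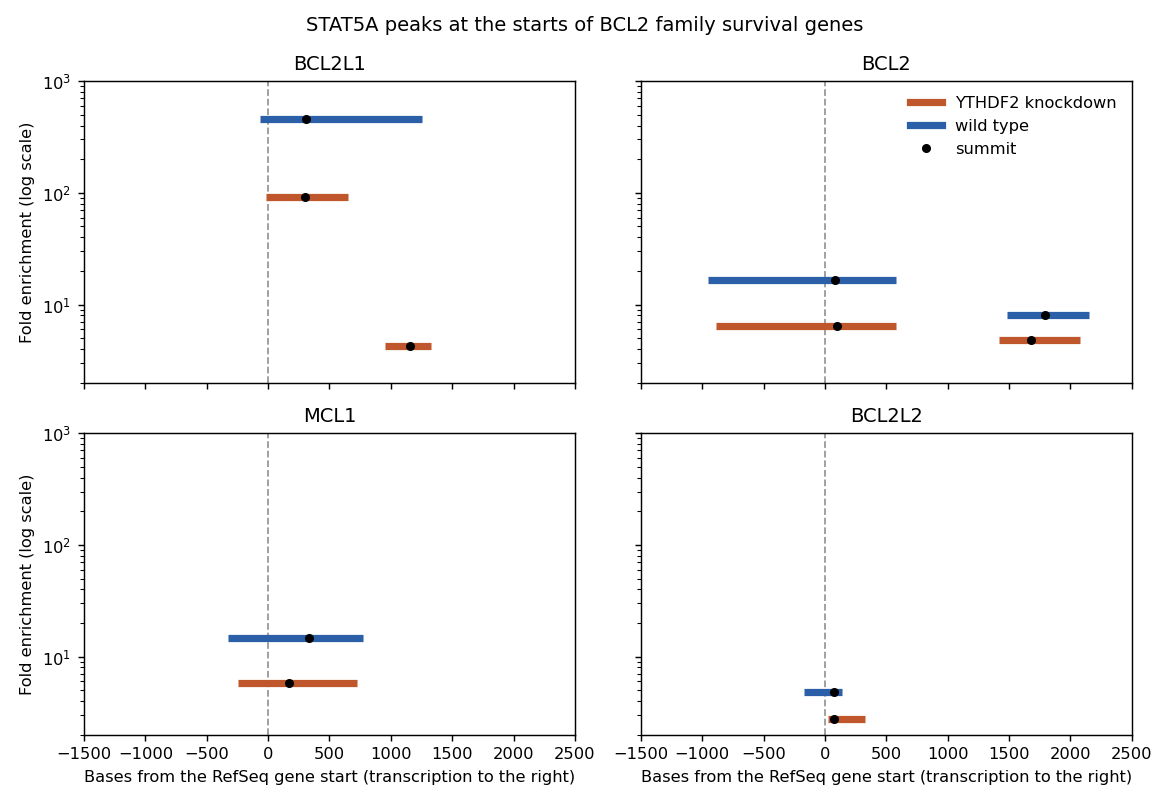
Peaks at the starts of the 4 occupied survival genes. Each bar spans a STAT5A peak, placed by its distance in bases from the RefSeq gene start (x) and its fold enrichment on a log scale (y), in knockdown and wild type, with a dot at the summit. BCL2L1 stands highest in both lists, with folds of 91.6 and 462, and BCL2L2 lowest, with 2.74 and 4.85.

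BCL2L1 encodes BCL-XL, and through another splice form the death-promoting BCL-XS. In the knockdown list its main peak spanned 31723315 to 31723979 on chromosome 20 (hg38) at a fold of 91.6. In wild type a single peak ran from 31722708 to 31724031 at a fold of 462. The q-value of both was listed as 0, a number too small for the deposited format. The summits of the 2 peaks lay 1 base apart, at 31723659 in knockdown and 31723658 in wild type. This point was 304 bases inside the gene from its RefSeq start in knockdown, and 305 in wild type. It lay in neither of the printed windows, being downstream of the first and upstream of the second.

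The 2 starts of BCL2L1 were covered differently in the lists. The knockdown list had a second, much weaker peak at 31722636 to 31723011, with a fold of 4.23. Its summit lay 58 bases downstream of the second RefSeq start, and a gap of 303 bases separated it from the main peak. The wild-type peak was 1324 bases wide and spanned both starts, which lie 1095 bases apart. It therefore overlapped both knockdown peaks. Of all wild-type peaks that overlapped a knockdown peak, 7.52% overlapped more than 1. No peak was listed in the rest of the gene, which is 59.5 kb long, in either condition.

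BCL2L1 was among the strongest promoters of each list. Taking the highest promoter peak of each gene, it lay at percentile 98.5 of 11196 genes in knockdown and at percentile 99.4 of 12912 genes in wild type. Counting BCL2L1 itself, 167 genes had a promoter fold at least as high in knockdown and 72 in wild type. The protein-coding genes nearest to it by these 2 percentiles were POU3F1 (91.4 in knockdown and 468 in wild type), PDK2 (87.2 and 467) and MSMO1 (90.4 and 546). Likeness here rests on 2 lists and says only that the peaks ranked alike. The next gene upstream of BCL2L1, TPX2, carried its own promoter peak 15.1 kb away in both lists, with folds of 24.99 and 31.5.

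BCL2, the founding member of the family, encodes a protein of the outer mitochondrial membrane. It had more peaks than the other 4 genes, 5 in knockdown and 4 in wild type. The knockdown peak over its start spanned 63319513 to 63320974 on chromosome 18 with a fold of 6.40. In wild type it ran from 63319514 to 63321041 and reached a fold of 16.8. Their summits, at 63319990 and 63320011, lay 21 bases apart and inside the window printed above, the whole of which was under a peak in both lists. Both peaks reached upstream of the gene start, by 884 bases in knockdown and 951 bases in wild type.

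A second peak lay just inside BCL2. It spanned 63318007 to 63318675 with a fold of 4.82 in knockdown. In wild type it spanned 63317936 to 63318604, and its fold was 8.0003. Both were 669 bases wide and overlapped over 598 bases, and their summits lay 111 bases apart. The authors placed them 1 to 2 kb from a transcript start. In each list the peak over the start was the stronger of the 2.

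The remaining BCL2 peaks were weak and lay far inside or beyond the gene, which is 196.7 kb long. An intronic peak 165 kb from the start was common to both lists, at 63155382 to 63155636 with a fold of 3.71 in knockdown and at 63155149 to 63155809 with a fold of 3.76 in wild type. The narrower knockdown peak lay wholly inside the wild-type one, with summits 31 bases apart. A further intronic peak, 142 kb from the start at 63177852 to 63178181 with a fold of 4.01, was listed in knockdown alone. Each list credited to BCL2 a distal intergenic peak past its 3′ end, and these did not overlap. The knockdown one lay at 63103926 to 63104137 with a fold of 3.16, and the wild-type one at 63057744 to 63058082 with a fold of 4.55. All 5 of these peaks had a fold below the median of their own list.

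**Figure D2:**
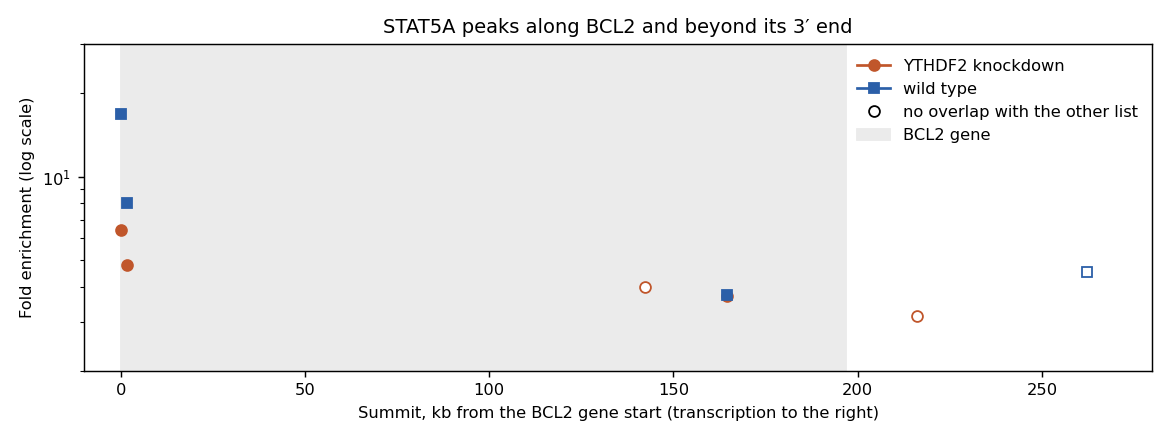
Peaks credited to BCL2. Points show the summit of each STAT5A peak by distance in kb from the gene start (x) and fold enrichment on a log scale (y), filled where the peak overlaps one of the other list, and the shaded span is the gene. Both lists share the 2 peaks near the start and the intronic peak 165 kb from it, where the 2 points nearly coincide, and the 3 open points are the peaks of 1 list.

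Among genes with a promoter peak, BCL2 lay above the middle of both lists, at percentile 69.9 (knockdown) and percentile 77.9 (wild type). With only peaks of fold 5 or more ranked, it lay below the middle in knockdown, at percentile 45.1. The genes nearest to it by both percentiles were CDKN1B (6.41 in knockdown and 16.8 in wild type), UBE3C (6.35 and 16.8) and KPNA3 (6.45 and 16.8). Relative to its length, BCL2 was not densely covered. With 1 kb added at each end, 13.7 bases per kb lay under a knockdown peak, at percentile 52.5 of all protein-coding genes. In wild type the value was 14.4 bases per kb, at percentile 40.9.

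MCL1 encodes a short-lived survival protein on which plasma cells depend. It had 1 peak in each list, over its start. The knockdown peak spanned 150578882 to 150579858 on chromosome 1 with a fold of 5.79 and an authors' q-value of 1.93e-44. In wild type it ran from 150578834 to 150579936 and had a fold of 14.6 and a q-value of 6.36e-109. All 977 bases of the knockdown peak lay inside the wild-type peak. The summits were 162 bases apart, 170 bases into the gene in knockdown and 332 bases in wild type.

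MCL1 is short, at 5.05 kb, and by rank this single peak gave it a high density. With the added ends, 138.5 bases per kb lay under a knockdown peak and 156.4 bases per kb under a wild-type peak, at percentiles 92.8 and 84.8 of all protein-coding genes. These were the highest densities of the 5 genes in both lists. By fold, MCL1 ranked lower, at percentile 60.9 of occupied promoters in knockdown and 70.4 in wild type. By p-value it ranked higher, at percentiles 85.7 and 87.3, above BCL2 at 77.3 and 82.9, so that the order of MCL1 and BCL2 depends on the measure. MTCL1 (5.81 in knockdown and 14.7 in wild type), SLCO2A1 (5.80 and 14.7) and TRERF1 (5.78 and 14.6) were nearest to it by both fold percentiles. Past the 3′ end of MCL1, the next peak was 2.37 kb away in knockdown, a peak near the threshold with a fold of 2.18 and a q-value of 0.0434 credited to ADAMTSL4-AS1. In wild type the next peak on that side was 12.2 kb away and credited to ADAMTSL4.

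BCL2L2 encodes BCL-W and shares its start with BCL2L2-PABPN1, a readthrough gene that joins it to the poly(A)-binding protein gene PABPN1. Neither list credited a peak to BCL2L2 itself. Under the rule on position, 1 peak per list fell to it, and both had been credited to the readthrough gene. The knockdown peak spanned 23306860 to 23307159 on chromosome 14 with a fold of 2.74 and a q-value of 0.0106. In wild type it ran from 23306663 to 23306969 and had a fold of 4.85 and a q-value of 5.49e-06. They overlapped over 110 bases, 36.7% of the knockdown and 35.8% of the wild-type peak, but their summits, 71 and 76 bases into the gene, lay 5 bases apart.

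These were weak peaks. The knockdown peak was at percentile 1.93 of all knockdown peaks by fold and the wild-type peak at percentile 29.9 of all wild-type peaks. A much stronger peak stood at the start of PABPN1, 9.2 kb past the 3′ end of BCL2L2, with a fold of 122 in knockdown and 345 in wild type. It too was credited to BCL2L2-PABPN1. A count made by the readthrough symbol would thus mix the weak peak at the BCL2L2 start with the strong one at the PABPN1 start.

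BCL2A1 encodes BFL-1, a survival protein known as a target of NF-kB in blood cells. No peak was credited to BCL2A1 in either list and none lay in the gene or within 1 kb of it. The nearest knockdown peaks lay 37.2 kb past its 3′ end and 45.2 kb upstream of its start, with folds of 4.32 and 4.26. In wild type the nearest lay 34.4 kb and 45.2 kb away, with folds of 6.45 and 6.58. They were credited to ST20-MTHFS on the one side and to ZFAND6 on the other. A gene without any peak in either list was not rare, since 3003 protein-coding genes (15.04%) had none. A list of called peaks does not show binding that was below the threshold, so STAT5A was not detected at BCL2A1 and is not shown to be absent.

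**Figure D3:**
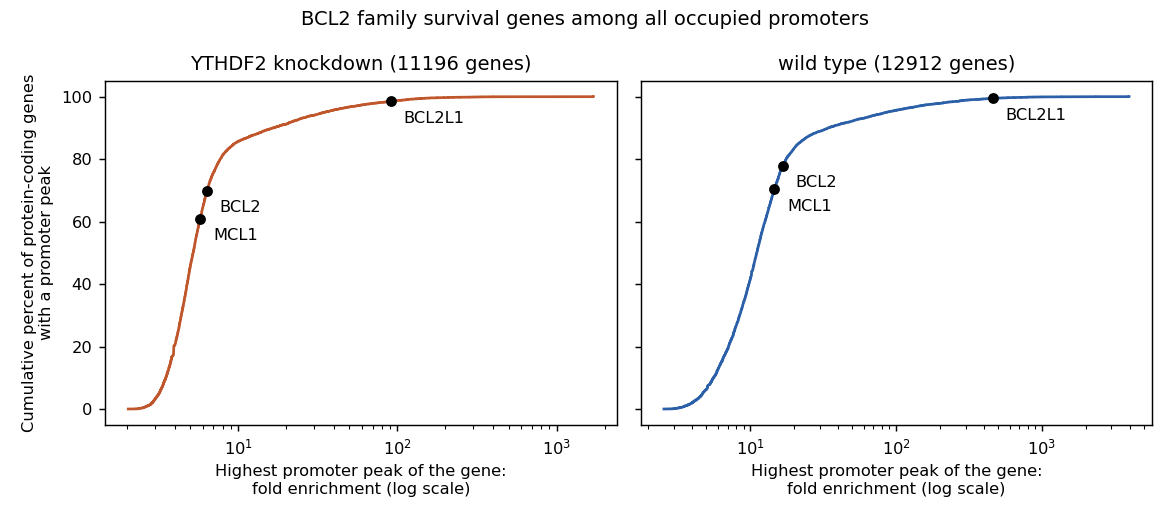
Survival genes among all occupied promoters. The curves give the cumulative percent of protein-coding genes (y) by the fold enrichment of their highest promoter peak (x, log scale) in knockdown and wild type, and points mark MCL1, BCL2 and BCL2L1. BCL2L1 sits on the top plateau of both curves, at percentiles 98.5 and 99.4, and MCL1 and BCL2 on the upper stretch of the steep part.

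Across the lists, the order of the 4 genes by promoter fold was the same, with BCL2L1 first, then BCL2, MCL1 and BCL2L2. Without replicates the neighbours in this order cannot be told apart by an error, and the folds of BCL2 and MCL1 were close to each other in both lists. Of the 9 knockdown peaks, 7 shared 1 base or more with a wild-type peak, against 77.1% of all knockdown peaks. Of the 7 wild-type peaks, 6 overlapped a knockdown peak, against 40.4% of all wild-type peaks. Most of the shared ones lay at starts, where overlap was more common in general. Of all peaks within 1 kb of a transcript start, 93.7% of knockdown and 64.0% of wild-type peaks overlapped the other list.

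The survival genes had 9 peaks in the shorter knockdown list and 7 in the wild-type list. At q under 0.01 this order held, with 8 in knockdown and 7 in wild type. It did not hold at q under 0.001, where each list had 7. With a fold of at least 5 there were 3 in knockdown and 4 in wild type. BCL2 had 5 in knockdown and 4 in wild type, and BCL2L1 had 2 and 1. These were 2 of the 4 survival genes with a peak, and among the 16967 protein-coding genes with any peak 11.1% had more knockdown than wild-type peaks. For BCL2L1 the wild-type peak covered the places of both knockdown peaks. For BCL2 the excess was the intronic peak of fold 4.01. In bases, the order was the other way around. With 1 kb added at each gene end, 5034 bases of the 5 genes lay under a knockdown peak and 5592 under a wild-type peak. Without the added ends, the values were 3886 in knockdown and 4077 in wild type.

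The printed windows differed in their base composition and motifs. The BCL2 window was 70.7% G and C with 31 CpG pairs, at percentile 74.5 of 22131 promoter windows of protein-coding genes by CpG number. The BCL2L1 windows held 20 CpG pairs at the gene start and 16 at the downstream start, at percentiles 48.1 and 40.3. The BCL2A1 window was 41.0% G and C with 2 CpG pairs, at percentile 8.18. Among all windows, those overlapping a peak became more frequent from one class of CpG number to the next. Of windows with 0 to 4 CpG pairs, 0.747% overlapped a knockdown peak and 1.19% a wild-type peak, and of those with 30 or more, 86.9% and 98.3%. What part the base composition has in the lack of a peak at BCL2A1 was not tested.

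**Figure D4:**
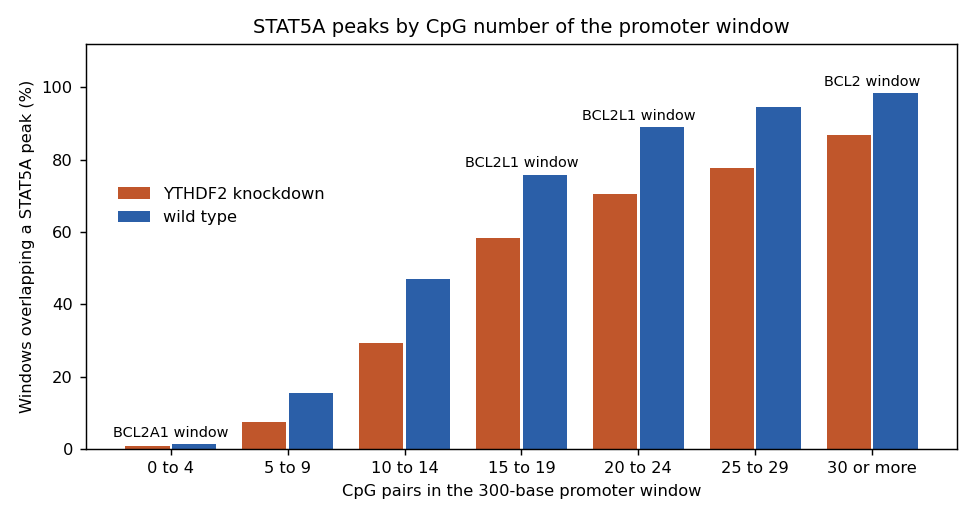
Promoter windows with a STAT5A peak by CpG number. Bars give the percent of RefSeq promoter windows of 300 bases (y) that overlap a peak in knockdown or wild type, for classes of CpG pairs per window (x), and the classes holding the member windows are marked. The BCL2A1 window falls in the class with the fewest peaks, at 0.747% and 1.19%, and the BCL2 window in that with the most.

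A search of both strands for TTCNNNGAA found 1 match in the 4 windows. It was ttctctgaa in the BCL2A1 window, from 168 bases before the start, where no peak was listed. The BCL2 window and both BCL2L1 windows had none. Of all promoter windows, 6.79% held the motif. The share was 4.90% among windows overlapping a knockdown peak and 8.82% among the others, and in wild type 4.83% and 10.2%. GGGCGG, the core bound by SP and KLF factors, had 1 match, in the downstream BCL2L1 window, against 56.3% of all windows with a match. CCAAT was found in 34.6% of all windows, in 70.5% of those with a knockdown fold of at least 20 and in 59.3% of those with such a wild-type fold, and in none of the 4. The motifs TGACGTCA, TGAGTCA and CACGTG had no match in the 4 either, against 2.26%, 4.01% and 8.34% of all windows. The summits of the BCL2L1 peaks lay outside both of its windows, so the bases under them were not searched.

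The death genes of the family were set beside the survival genes. Of the 11 death genes, 10 carried a promoter peak in each list and BOK did in neither, against 56.1% of all protein-coding genes in knockdown and 64.7% in wild type. Counting any peak within 1 kb of the RefSeq gene start, the number was 9 of 11 in each list. The shares of all genes of known strand were 62.4% in knockdown and 72.7% in wild type. BCL2L11, which encodes the BH3-only protein BIM, led with a fold of 50.4 in knockdown and 214 in wild type. BBC3, which encodes PUMA, came next by wild-type fold (12.4 in knockdown and 27.6 in wild type). BAD (21.2 and 21.7) followed by wild-type fold but stood above BBC3 in knockdown. Within 1 kb of the RefSeq gene start of BAD, the highest fold was 4.99 in knockdown and 20.0 in wild type. BBC3 had no peak within that distance of its gene start in either list. The pore formers BAX (3.70 and 7.86) and BAK1 (3.94 and 8.45) were below the median promoter fold of all occupied genes, 5.22 in knockdown and 11.1 in wild type. Over the occupied genes the median fold was 5.75 in knockdown and 13.2 in wild type for the 10 death genes and 6.40 and 16.8 for the 3 survival genes. These medians are descriptions, and whether the 2 sides of the family differ was not tested.

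**Figure D5:**
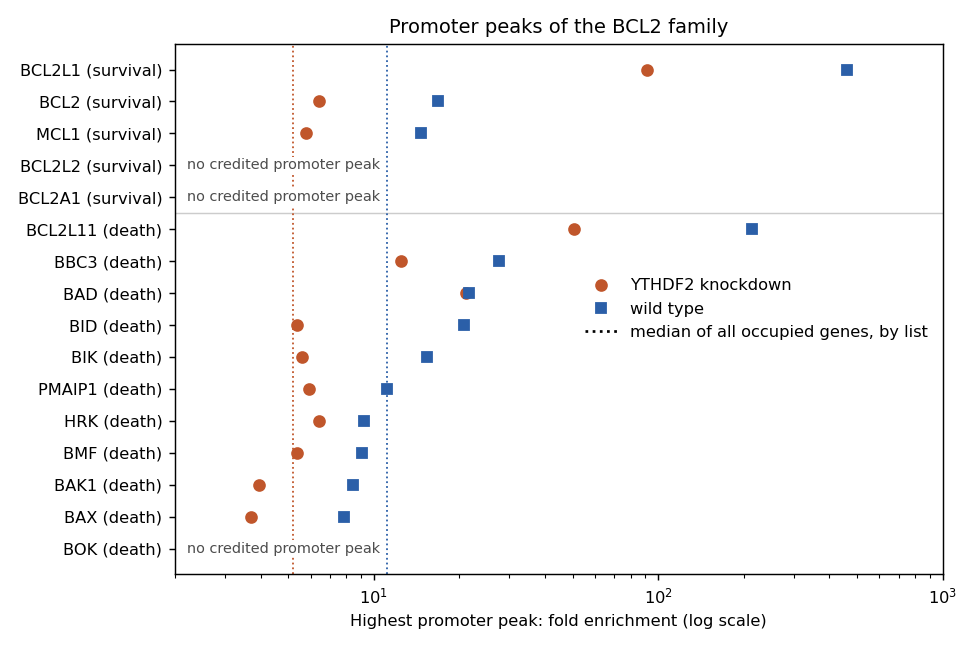
Promoter peaks of survival and death genes. Points give the fold enrichment (x, log scale) of the highest promoter peak credited to each gene (y) in knockdown and wild type, and dotted lines the medians of all genes with a promoter peak, 5.22 and 11.1. BCL2L1 and BCL2L11 have the highest folds of the genes shown in both lists, and BAX and BAK1 lie below the median of each list.

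The other genes of the pathway are read against the same shares of all protein-coding genes with a credited promoter peak, 56.1% in knockdown and 64.7% in wild type. Of 6 further BCL2-like genes, 2 carried promoter peaks in each list, BCL2L2-PABPN1 (described above) and BCL2L13 (4.40 and 8.76). BCL2L12 had one in knockdown only, with a fold of 2.79, and BCL2L10 in wild type only, with a fold of 7.33. Within 1 kb of the BCL2L12 gene start lay a wild-type peak of fold 8.43 that was not among its credited promoter peaks. Of 10 genes that act downstream at the mitochondrion, 8 were occupied in both lists. HTRA2 (26.2 and 92.9), DIABLO (4.85 and 15.9), both of which counter inhibitors of caspases, and CYCS, the cytochrome c gene (4.27 and 14.3), came first by wild-type fold. APAF1, which forms the apoptosome, was credited in knockdown only (2.66). The highest peaks within 1 kb of its gene start had folds of 4.91 in knockdown and 6.97 in wild type. Neither was among its credited promoter peaks. Of 5 genes for enzymes that set the stability of MCL1 protein, the ubiquitin ligase genes BTRC (18.7 and 19.7) and HUWE1 (5.80 and 12.9) and the deubiquitinase gene USP9X (5.69 and 11.2) had a credited promoter peak in both lists. For all 5, FBXW7 and MARCHF5 included, a peak lay within 1 kb of the gene start in both lists, against 62.4% and 72.7% of all genes of known strand.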

How the data were processed

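STAT5A ChIP-seq peaks of ARP1 cells, wild type or with YTHDF2 knockdown, were analysed as 2 deposited peak lists, each from 1 immunoprecipitation and 1 input. The series' design text mentions histone marks and the titles call the controls input RNA, whereas the antibody label gives STAT5A and the molecule label genomic DNA, and these labels were followed. Per the submitters' processing notes, cutadapt, Trimmomatic, FastQC, Bowtie2 and MACS2 were used on hg38, and the settings and the peak annotation tool are not stated there. The fold enrichment is a linear ratio deposited by the authors, over what is not stated. The p-value and q-value of each peak are also the authors', on a linear scale, with all q-values under 0.05. Per the file headers, the distance to a transcript start, the peak width and the summit offset are in bases, and were treated as a score per peak as deposited.

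Coordinates start at 1. Genes came from the RefSeq table of GRCh38.p14, the build equal to hg38, for chromosomes 1 to 22 and X, and were matched by gene identifier. Promoter sequences are from RefSeq on the same build, with windows for 15811 of 19970 protein-coding genes and for 3 of the 5 members. Overlap meant at least 1 base. Percentiles place a gene within its own list, with ties placed midway. Nearest genes were the 3 with the smallest Euclidean distance in both percentiles. Gene lists were described by counts, with the 3 of highest wild-type fold and those in 1 list named. No test was made between conditions, since each has 1 list, and depth is unknown. The overlap step was tested on simulated data. Python 3.11.15, numpy 2.4.6 and pandas 2.3.3 were used. The members and gene lists were chosen with earlier results of these data known. Alternatives covered stricter thresholds, list length, definitions of overlap and promoter, gene ends and ranking.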

Additional observations from a re-analysis of the deposited data

How the results depend on the processing

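Of 49 alternative counts of member peaks, shared peaks, genes with a promoter peak and bases covered, 41 stayed within 1.5 times the reported value. The 3 genes with a credited promoter peak stayed 3 in each list under every alternative run except the rule by position, which gave 4 by adding BCL2L2. That rule was run without stricter thresholds. The BCL2L2 peaks, with folds of 2.74 in knockdown and 4.85 in wild type, do not reach a fold of 5. The q-value of the knockdown one, 0.0106, is not under 0.01. With a fold of at least 5, 3 knockdown and 4 wild-type peaks were left, 3 were shared in each list and 3104 bases were covered in knockdown. This minimum lies above the median fold of the knockdown list. When only the top wild-type peaks by q-value were kept, as many as the knockdown list holds, 4 wild-type peaks were left, fewer than the 9 of knockdown. By a reciprocal overlap of 50% or by summits within 100 bases, 4 knockdown peaks were shared.

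The median percentile of the 3 occupied promoters was 69.9 in knockdown and 77.9 in wild type. In knockdown it was 68.1 at q under 0.001, 45.1 with a fold of at least 5, 85.7 when ranked by p-value and 85.6 among all peaks. In wild type it was 76.4 with a fold of at least 5, 75.9 with the wild-type list cut to that length, 87.3 by p-value and 93.7 among all peaks. A higher minimum removes the genes below it from the ranking, and all peaks include many weaker ones away from starts. The lowest percentile of BCL2L1 under these settings was 97.3 in knockdown and 96.3 in wild type, while MCL1 ranged from 28.7 to 85.7 in knockdown. Read depth is unknown, so peaks absent from a list may lie below its threshold. No paired analysis was possible because each condition has 1 list.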
